A study of Mus musculus with 9 samples.

Results

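The reactive astrocyte genes are a list of 10 genes that reactive astrocytes are known to express: Gfap, Vim, Serpina3n, Lcn2, Cd44, Osmr, Timp1, Stat3, S1pr3 and Steap4. All 10 were found by symbol among the 49315 gene rows of the count table, and all 10 were among the 18492 genes with enough counts to be tested. The question was how their RNA levels differ between young and old mouse brain. PolyA-selected RNA from whole brain of wild type male C57BL/6J mice was sequenced, from 5 mice of 3 months (young replicates 1 to 5) and 4 mice of 33 months (old replicates 1, 3, 4 and 5). The labels name no transgene and no treatment, and each library was made from whole tissue, so no cell type was isolated. Levels are given as CPM, counts scaled to the same total in each library without correction for gene length. The libraries held between 14229259 and 21150439 counts on genes.

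Astrocytes are the glial cells that take up glutamate and potassium, feed neurons and cover blood vessels. After injury, inflammation or in old age they become reactive: they enlarge, build more intermediate filament and secrete acute phase proteins and protease inhibitors. A main route to this state is the gp130 family of cytokine receptors, in which oncostatin M binds a receptor pair of OSMR and gp130, Janus kinases phosphorylate STAT3, and STAT3 dimers enter the nucleus and bind paired TTC and GAA half-sites in DNA. The gene for glial fibrillary acidic protein, Gfap, is a textbook STAT3 target and the standard marker of astrocytes. Several of the other genes are also expressed outside astrocytes: Vim and S1pr3 in vessel walls, Cd44 in leukocytes and Lcn2 in neutrophils.

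The promoter sequences are shown for Gfap and Steap4, the genes with a STAT letter pattern, and for Serpina3n, which has none. The searched window ran from 250 bases before to 50 bases after the transcript start in RefSeq (GRCm38.p6), and all 10 genes had 1 window. The capitals mark TTCNNNGAA, which reads the same on both strands. The printed Gfap stretch is chr11:102897194-102897443 on the minus strand, which reaches 7 bases into the first exon. The Steap4 stretch is chr5:7960222-7960471 on the plus strand, which also covers an exon of Gm30835, a long noncoding RNA gene on the other strand. The Serpina3n stretch is chr12:104406458-104406707 on the plus strand.
Gfap: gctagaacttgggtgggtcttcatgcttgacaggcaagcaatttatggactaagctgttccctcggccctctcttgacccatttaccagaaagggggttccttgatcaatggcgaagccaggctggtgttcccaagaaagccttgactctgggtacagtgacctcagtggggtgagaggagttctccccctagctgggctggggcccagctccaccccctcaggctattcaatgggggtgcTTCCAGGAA
Steap4: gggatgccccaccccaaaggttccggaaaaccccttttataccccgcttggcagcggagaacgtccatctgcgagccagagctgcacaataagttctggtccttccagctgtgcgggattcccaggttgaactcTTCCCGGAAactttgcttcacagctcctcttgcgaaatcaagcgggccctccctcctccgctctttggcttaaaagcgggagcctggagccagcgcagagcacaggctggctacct
Serpina3n: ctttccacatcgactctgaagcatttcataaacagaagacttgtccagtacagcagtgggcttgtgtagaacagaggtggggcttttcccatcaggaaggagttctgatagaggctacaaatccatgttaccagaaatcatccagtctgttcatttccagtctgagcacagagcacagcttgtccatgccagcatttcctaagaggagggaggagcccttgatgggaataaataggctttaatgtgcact
The pattern TTCNNNGAA was found in 2 of the 10 windows and in 8.30% of all 32851 windows. In Gfap the match TTCCAGGAA began 2 bases before the start, and in Steap4 the match TTCCCGGAA began 116 bases before it. The AP-1 pattern TGANTCA, also equal on both strands, was found in 1 of the 10 windows, that of Osmr (TGATTCA, beginning at base 4 of the transcript), and in 7.81% of all windows. These are letter matches in a short window and were not measured as binding.

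Of the 10 genes, 8 were higher in old than in young brain (edgeR quasi-likelihood test, Benjamini-Hochberg adjusted p under 0.05 over all genes tested), and none was lower, also by DESeq2 and at an unadjusted p under 0.05. Among all tested genes 6.20% were called higher and 4.83% lower by the same rule. These shares also stand beside the counts of the gene lists below. With an absolute log2 fold change over 0.58 required as well, 6 of the 10 were called higher, namely Gfap, Vim, Serpina3n, Lcn2, Cd44 and Osmr, beside 2.28% of all genes. The median log2 fold change was 0.78 over the 10 genes and -9.2e-05 over all tested genes. In whole brain, a larger number of reactive cells and more RNA per cell cannot be told apart.

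**Figure D1:**
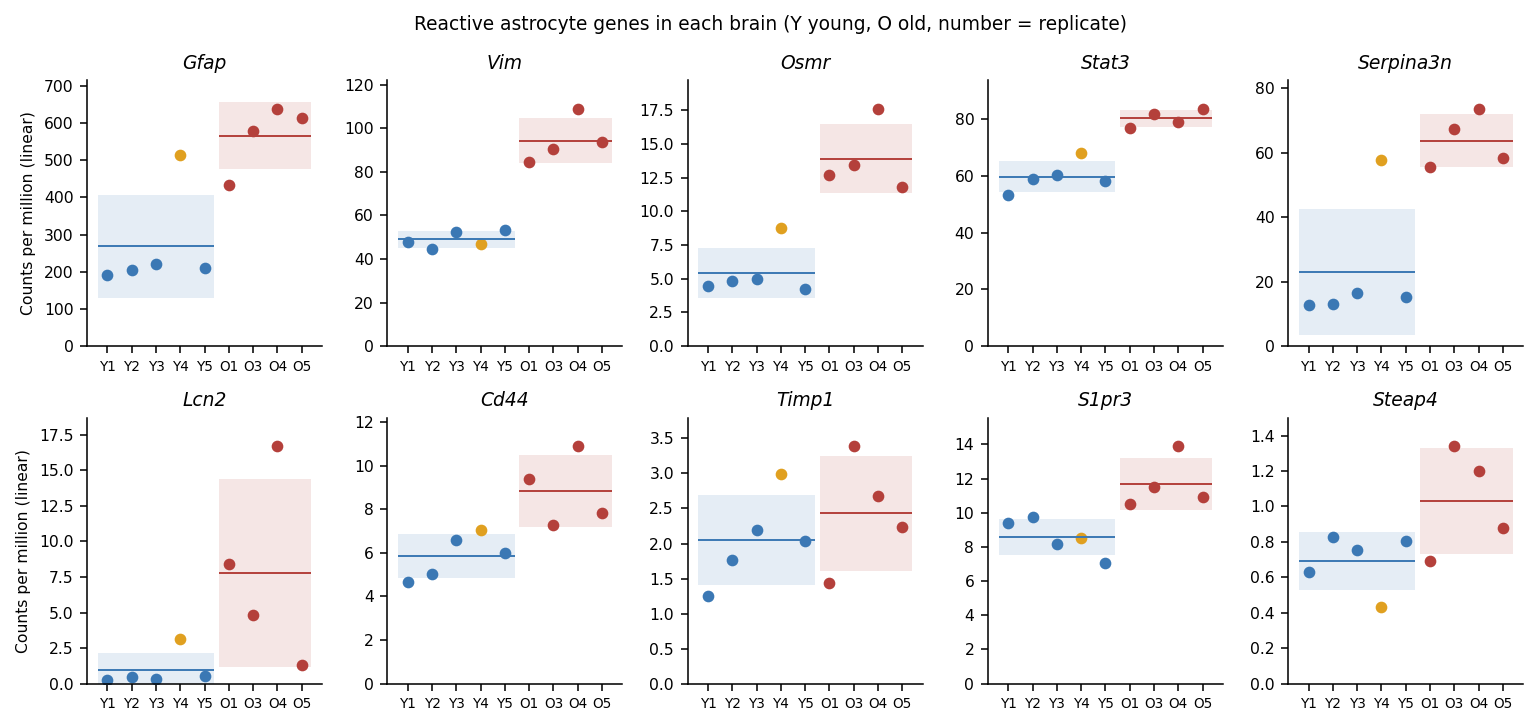
Level of each gene in CPM on a linear axis (vertical) in each of the 9 brains (horizontal, Y young and O old, with the replicate number); orange is young replicate 4, lines are age means and bands are ± 1 SD. Old brains lie above all young brains for Vim, Osmr, Stat3, Cd44 and S1pr3, and young replicate 4 lies within the old range for Gfap (514 CPM), Serpina3n (57.8 CPM) and Lcn2 (3.14 CPM).

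One young brain stood apart for these genes. Young replicate 4 had the highest young level of 7 of the 10 genes, which was so for 20.2% of all tested genes. It was at over 2 times the mean of the other 4 young brains for Gfap, Serpina3n and Lcn2, and for 1.07% of all tested genes. The results of the 10 genes are therefore given with and without it, and those of the gene lists where a count or call differed. In all 9 brains, every old value lay above every young value for 5 of the 10 genes and for 6.50% of all tested genes. Without young replicate 4 this held for 8 of the 10 genes and for 8.65% of all tested genes.

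Gfap (ENSMUSG00000020932, chr11:102887336-102900912 on GRCm38), which encodes the main intermediate filament protein of astrocytes, was at 191, 204, 221, 514 and 211 CPM in young replicates 1 to 5. In old replicates 1, 3, 4 and 5 it was at 434, 578, 638 and 614 CPM. The other 4 young brains lay close together and below all old brains, whereas young replicate 4 lay above old replicate 1. The young mean was 268 ± 138 CPM (SD, n = 5) and the old mean 566 ± 91.2 CPM (SD, n = 4), and the log2 fold change was 1.07 (SE 0.24, adjusted p = 0.012). Without young replicate 4 the young mean was 207 ± 12.7 CPM (SD, n = 4) and the log2 fold change 1.45 (SE 0.096, adjusted p = 1.0e-06). With edgeR's robust estimate of the spread, which leaves genes of unusual spread with more of their own spread, the difference did not pass in all 9 brains (adjusted p = 0.091) and passed without young replicate 4 (adjusted p = 0.00063).

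Vim (ENSMUSG00000026728, chr2:13573927-13582826), the gene of vimentin, a filament protein that reactive astrocytes assemble together with GFAP and that vessel cells also hold, gave 47.7, 44.6, 52.6, 46.8 and 53.3 CPM in the young brains. The old brains gave 84.6, 90.7, 109 and 93.7 CPM. All old values lay above all young values, and young replicate 4 lay among the other young brains, at 0.945 times their mean. Its log2 fold change was 0.95 (SE 0.07, adjusted p = 5.6e-06) with all brains and 0.93 (adjusted p = 6.7e-06) without young replicate 4. For Gfap the same ratio was 2.49.

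No further filament gene was called higher. Of 10 genes for other filament proteins and their linkers, all tested, 0 were called higher and 3 lower by edgeR, and 0 and 2 by DESeq2, with a median log2 fold change of -0.057. At an unadjusted p under 0.05, 2 were higher and 4 lower. The lower genes encode neuronal filament proteins: Nefh, the heavy neurofilament chain, went from 234 ± 28.0 to 162 ± 29.6 CPM (log2 fold change -0.53, SE 0.11, adjusted p = 0.0076), Ina, alpha-internexin, had -0.23 (SE 0.046, adjusted p = 0.0075) and Nefm, the medium chain, -0.36 (SE 0.10, adjusted p = 0.037). Nefm did not pass without young replicate 4 (adjusted p = 0.066), and with the robust estimate neither Nefm (0.14) nor Nefh (0.058) passed, while 5 of the 10 were called without old replicate 4. Nes, the gene of nestin, found in neural precursors, in vessels and in reactive astrocytes, did not pass (log2 fold change 0.28, SE 0.18, adjusted p = 0.36) and was at 10.7, 20.9, 13.7 and 24.6 CPM in the old brains. Those 4 values lay on both sides of the young mean, 14.3 ± 0.957 CPM. Synm (synemin, adjusted p = 0.28) and the linker gene Plec (plectin, adjusted p = 0.093), at log2 fold changes of 0.13 and 0.11, did not pass either. Both changed sign when levels were taken from the authors' TPM values, which also divide by gene length. On log2(TPM + 1) the median log2 fold change of all genes was -0.14, and signs on the TPM scale given below carry the same shift.

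Osmr (ENSMUSG00000022146, chr15:6813577-6874969), the receptor chain for oncostatin M, was at 4.49, 4.81, 4.95, 8.74 and 4.26 CPM in the young brains. In the old brains it was at 12.7, 13.4, 17.6 and 11.8 CPM. Young replicate 4 lay between the other young brains and the old brains, and the ages did not overlap. The log2 fold change was 1.33 (SE 0.19, adjusted p = 0.00068), with the robust estimate the adjusted p was 0.004, and without young replicate 4 the log2 fold change was 1.59 (SE 0.13, adjusted p = 6.8e-06).

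Stat3 (ENSMUSG00000004040, chr11:100885098-100939540), the transcription factor at the end of this route, was at 53.1, 58.7, 60.3, 68.1 and 58.2 CPM in the young and 76.9, 81.9, 78.8 and 83.6 CPM in the old brains. All old values lay above all young values, of which young replicate 4 was the highest. The log2 fold change was 0.43 (SE 0.059, adjusted p = 0.00062), and 0.48 (SE 0.048, adjusted p = 3.7e-05) without young replicate 4. The call was lost on the TPM scale (limma on log2(TPM + 1), adjusted p = 0.5), where the median log2 fold change of all genes was -0.14 and Stat3 lay 0.39 above that median. Stat3 shares 72 of its 9527 exon bases with Stat5a on the other strand, and strand-specific counting is not stated for these libraries.

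Of 24 other genes of the gp130, JAK and STAT route, 20 had enough counts, 5 were called higher and 0 lower by edgeR (10 and 0 at an unadjusted p under 0.05, 6 and 0 by DESeq2), and the median log2 fold change was 0.14. The count was 6 without young replicate 4. Socs3, the feedback inhibitor that STAT3 induces, went from 2.72 ± 0.396 to 4.50 ± 0.297 CPM (log2 fold change 0.72, SE 0.14, adjusted p = 0.0049), with every old brain above every young brain. Jak2 (0.27, SE 0.06, adjusted p = 0.012), a receptor kinase, and Ptpn11 (0.23, SE 0.033, adjusted p = 0.00087), a phosphatase of the pathway, also rose. Il6ra, the binding chain of the interleukin 6 receptor, rose as well (0.66, SE 0.17, adjusted p = 0.024). Its log2 fold change was 0.88 (SE 0.11, adjusted p = 0.0003) without young replicate 4. It was at 1.77 times the mean of the other young brains in young replicate 4 and was named after its values were seen.

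Neither gp130, which pairs with OSMR, nor the related receptor chain LIFR passed the test. Il6st, which encodes gp130, averaged 124 ± 3.66 CPM in the young and 130 ± 9.25 CPM in the old (log2 fold change 0.07, adjusted p = 0.41), and Lifr, the leukemia inhibitory factor receptor, averaged 64.9 ± 3.71 and 72.0 ± 5.73 CPM (0.15, adjusted p = 0.11). Both changed sign on the TPM scale. Jak1, another receptor kinase, did not pass either (-0.02, adjusted p = 0.81). The ligand gene Osm had too few counts to be tested, with at most 0.193 CPM in the young and 0.691 CPM in the old brains.

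Serpina3n (ENSMUSG00000021091, chr12:104406729-104414329), which encodes a secreted serine protease inhibitor of the acute phase, was at 12.8, 13.1, 16.6, 57.8 and 15.2 CPM in the young brains. The old brains were at 55.6, 67.4, 73.7 and 58.5 CPM. Young replicate 4 was 4.01 times the mean of the other young brains and lay above old replicate 1, while the other 4 young brains lay far below all old brains. The young mean was 23.1 ± 19.5 CPM and the old mean 63.8 ± 8.29 CPM (log2 fold change 1.43, SE 0.35, adjusted p = 0.019), and the robust estimate ended this call (adjusted p = 0.11). Without young replicate 4 the young mean was 14.4 ± 1.81 CPM, the log2 fold change 2.16 (SE 0.10, adjusted p = 3.3e-08), and the robust estimate gave the same call (adjusted p = 8.3e-07). Serpina3n has close copies, and reads that fit several copies equally were not counted, so its level is uncertain to that extent. Of the 7 copies on the list, only Serpina3g had enough counts to be tested, and its log2 fold change was 0.13 (SE 0.28, adjusted p = 0.81).

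Lcn2 (ENSMUSG00000026822, chr2:32384633-32388252) encodes lipocalin 2, a secreted protein that binds bacterial iron carriers and is made by reactive astrocytes and stored in neutrophil granules. It was at 0.261, 0.443, 0.344, 3.14 and 0.556 CPM in the young and 8.39, 4.80, 16.7 and 1.29 CPM in the old brains. The counts behind these values were 5 to 9 reads in 4 young libraries, 65 in young replicate 4 and 22 to 305 in the old libraries, so the low values carry large counting errors. Young replicate 4 lay above old replicate 5, and old replicate 4 lay far above the rest. The log2 fold change was 2.95 (SE 0.67, adjusted p = 0.013), did not pass with the robust estimate (adjusted p = 0.091), was 4.28 (SE 0.70, adjusted p = 0.0018) without young replicate 4 and 2.26 (adjusted p = 0.042) without old replicate 4.

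Old replicate 4, with the highest Lcn2 level, also had the highest levels of neutrophil genes. The summed level of 7 neutrophil markers was 101 CPM in that brain, 3.31 to 6.43 CPM in the other old brains and 1.10 to 2.32 CPM in the young brains, with young replicate 4 at 2.32 CPM. S100a9, a neutrophil calcium-binding protein gene, was at 28.5 CPM in old replicate 4 and at most 1.82 CPM elsewhere. Ngp, a neutrophil granule protein gene, was at most 1.86 CPM outside old replicate 4 (log2 fold change 4.0, SE 1.1, adjusted p = 0.027). Of the 7 markers, 3 had enough counts and all 3 were called higher in old brain by edgeR, against 0 with its robust estimate, under which 3 had an unadjusted p under 0.05. DESeq2 gave no p for any of the 3. Without young replicate 4, Ngp was not tested and 2 markers were called. Red blood cell genes were also highest there, with a sum of 409 CPM, 128 to 262 CPM in the other old brains and 86.1 to 116 CPM in the young brains. The part of these cells in the Lcn2 result was not tested.

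**Figure D2:**
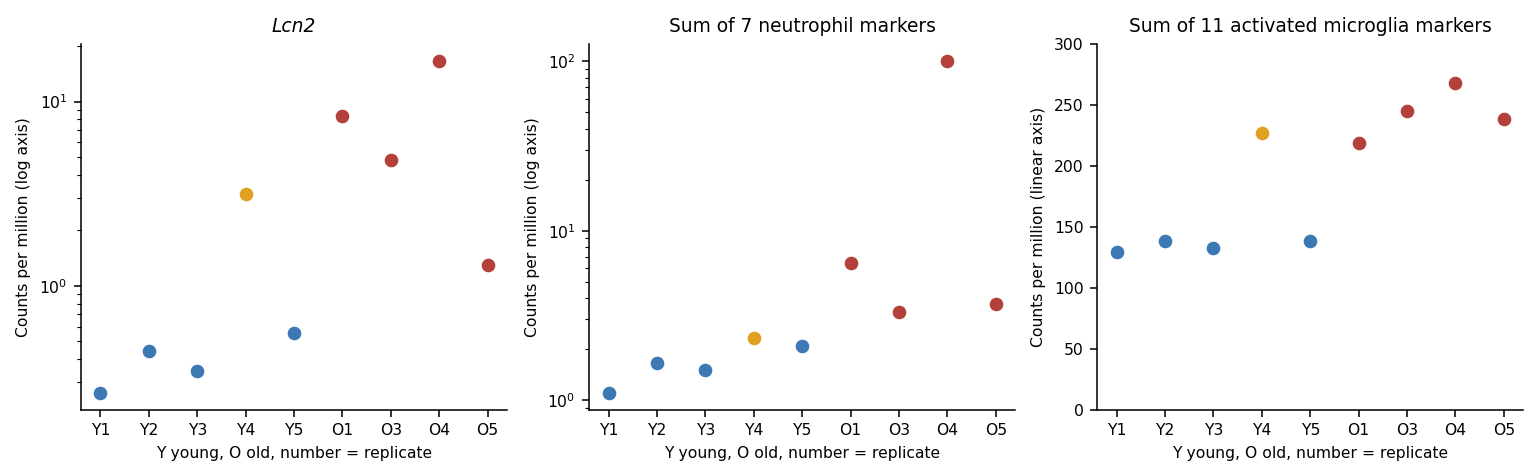
Lcn2, the sum of 7 neutrophil markers (both on log axes) and the sum of 11 activated microglia markers (linear axis), all in CPM, in each brain (Y young, O old, with the replicate number; orange is young replicate 4). Old replicate 4 is highest in all 3 panels, with 101 CPM of neutrophil markers, and young replicate 4 is near the old brains in Lcn2 and microglial markers (227 CPM) and near the young brains in neutrophil markers (2.32 CPM).

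Cd44 (ENSMUSG00000005087, chr2:102811141-102901665), a receptor for the matrix polymer hyaluronan, was at 4.65, 5.03, 6.60, 7.05 and 5.99 CPM in the young and 9.40, 7.26, 10.9 and 7.81 CPM in the old brains. The ages did not overlap, but young replicate 4 and old replicate 3 were close. Its log2 fold change was 0.60 (SE 0.15, adjusted p = 0.017), and 0.69 (SE 0.15, adjusted p = 0.0099) without young replicate 4. The call was lost without old replicate 4 (0.48, adjusted p = 0.054) and on the TPM scale (log2(TPM + 1), adjusted p = 0.4), where Cd44 lay 0.45 above the median of all genes. Old replicate 4 had both the highest Cd44 level and the highest sum of neutrophil markers (101 CPM). The part of leukocytes in the Cd44 result was not tested.

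S1pr3 (ENSMUSG00000067586, chr13:51408639-51422797), a receptor for the lipid mediator sphingosine 1-phosphate, was at 9.41, 9.74, 8.18, 8.50 and 7.04 CPM in the young and 10.5, 11.5, 13.9 and 10.9 CPM in the old brains. The ages did not overlap, and young replicate 4 was the third highest of the young. The log2 fold change was 0.45 (SE 0.11, adjusted p = 0.018), and 0.44 (SE 0.12, adjusted p = 0.031) without young replicate 4. As for Cd44, the call was lost without old replicate 4 (0.35, adjusted p = 0.058) and on the TPM scale (adjusted p = 0.54, 0.38 above the median of all genes). S1pr3 shares 45 of its 4463 exon bases with Gm32834 on the other strand.

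Timp1 and Steap4 did not pass the test. Timp1 (ENSMUSG00000001131, chrX:20870166-20874735), an inhibitor of matrix metalloproteinases, was at 1.25, 1.77, 2.20, 2.99 and 2.04 CPM in the young and 1.43, 3.39, 2.68 and 2.23 CPM in the old brains. The ages overlapped, with old replicate 1 next to the lowest young brain. The log2 fold change was 0.22 (95% confidence interval -0.34 to 0.79, adjusted p = 0.64), and 0.42 (-0.14 to 0.97, adjusted p = 0.34) without young replicate 4.

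Steap4 (ENSMUSG00000012428, chr5:7960457-7982213), which encodes a metal reductase, was at 0.627, 0.830, 0.756, 0.435 and 0.803 CPM in the young and 0.691, 1.34, 1.20 and 0.880 CPM in the old brains. These values rest on 9 to 22 reads a library. Young replicate 4 was the lowest of all brains for Steap4, at 0.577 times the mean of the other young brains. The log2 fold change was 0.57 (95% confidence interval -0.01 to 1.16, adjusted p = 0.2), and 0.43 (-0.15 to 1.02, adjusted p = 0.36) without young replicate 4, so that a rise of the size seen for Gfap lay within the first interval.

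**Figure D3:**
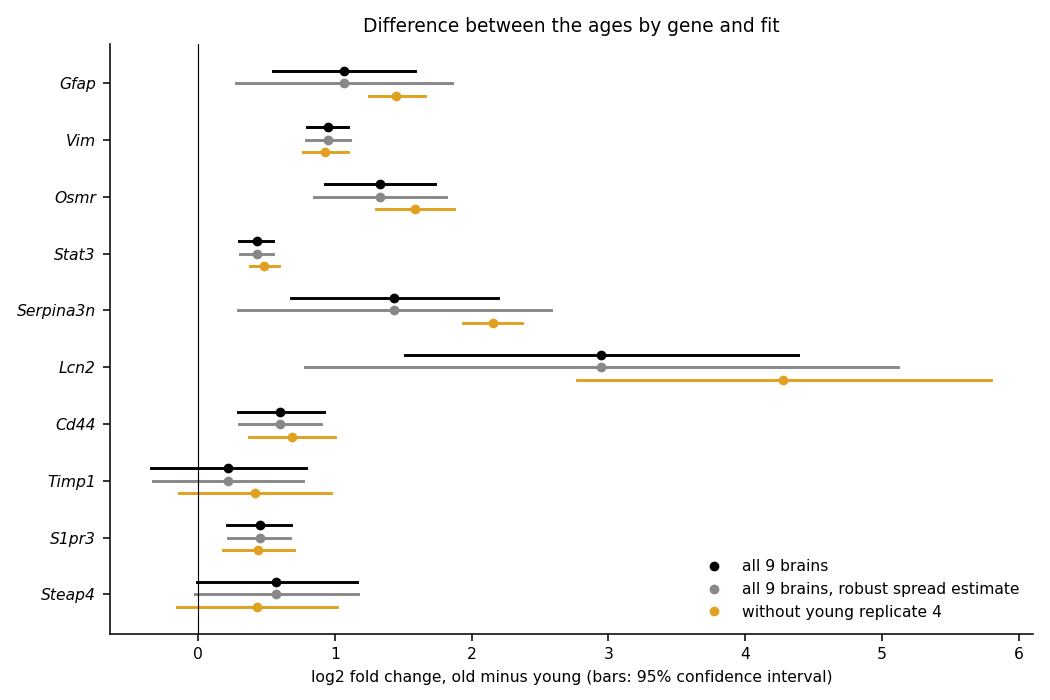
Log2 fold change of each gene, old minus young (horizontal), with bars for the 95% confidence interval, from all 9 brains, from all 9 brains with a robust spread estimate and without young replicate 4. The intervals of Gfap, Serpina3n and Lcn2 widen with the robust estimate, their values shift upward without young replicate 4 (to 1.45, 2.16 and 4.28), and Vim lies at 0.95 and 0.93.

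With the robust estimate 5 of the 10 genes were called higher (Vim, Osmr, Stat3, Cd44 and S1pr3), beside 6.09% of all genes. Without young replicate 4 the same 8 genes as in all 9 brains were called higher, beside 6.33% of the 18132 genes tested there. The genes that depended on the spread estimate were Gfap, Serpina3n and Lcn2, in which young replicate 4 lay within the old range.

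The binding partners and relatives of these genes gave no common direction. Of 37 such genes, 29 had enough counts, and 3 were called higher and 2 lower, beside 6.20% and 4.83% of all tested genes. The median log2 fold change was 0.0069, and 1 gene was called on each TPM scale. Timp3, a matrix-bound relative of Timp1, rose from 80.2 ± 3.19 to 102 ± 10.1 CPM (log2 fold change 0.35, SE 0.058, adjusted p = 0.0021), whereas Timp2, another relative, was at 331 CPM in both ages (adjusted p = 1). Mmp14, a membrane-bound metalloproteinase gene, fell (log2 fold change -0.46, SE 0.10, adjusted p = 0.010). Among the genes of sphingosine 1-phosphate, the receptor gene S1pr1 fell (-0.22, SE 0.04, adjusted p = 0.004), the exporter gene Spns2 (0.21, SE 0.058, adjusted p = 0.03) and the lyase gene Sgpl1 (0.21, SE 0.044, adjusted p = 0.008) rose, and the kinase gene Sphk1 had 0.38 (SE 0.13, adjusted p = 0.067). Slc22a17, the lipocalin 2 receptor gene, averaged 586 ± 24.2 CPM in the young and 559 ± 26.5 CPM in the old (log2 fold change -0.07, adjusted p = 0.33).

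The published classes of reactive astrocyte genes, found in mice after inflammation (A1), after ischemia (A2) or after both (pan-reactive), were counted for comparison. Beyond the genes above, 3 of the 4 other pan-reactive genes were higher in old brain, and also 3 without young replicate 4. The count was 2 in 7 of the 9 fits without 1 mouse, with the robust estimate and on both TPM scales. Cxcl10, an interferon-induced chemokine gene, rose from 0.245 ± 0.166 to 1.18 ± 0.146 CPM (log2 fold change 2.17, SE 0.34, adjusted p = 0.0014, and 2.70 without young replicate 4), and Cp, the copper oxidase gene, from 18.7 ± 1.39 to 29.1 ± 3.23 CPM (0.63, SE 0.078, adjusted p = 0.00025). Aspg, an asparaginase gene, had 0.90 (SE 0.24, adjusted p = 0.03; 0.077 with the robust estimate), with 7.05 CPM in young replicate 4 and a mean of 3.24 CPM in the other young brains, and without that brain it was 1.23 (SE 0.17, adjusted p = 0.00064). The fourth, the heat shock gene Hspb1, had -0.04 (SE 0.21, adjusted p = 0.93).

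Of the 12 A1 genes, 11 were tested and 10 were higher, with a median log2 fold change of 0.86, and the count was 10 both with the robust estimate and without young replicate 4. Examples were the MHC class I genes H2-D1 (0.88, SE 0.081, adjusted p = 3.6e-05) and H2-T23 (0.71, SE 0.086, adjusted p = 0.00022), whose close copies leave their counts uncertain, the cochaperone gene Fkbp5 (0.86, SE 0.093, adjusted p = 0.0001) and the matrix gene Fbln5 (1.02, SE 0.12, adjusted p = 0.00022). Young replicate 4 had the highest young level of 8 of the 11 tested A1 genes, beside 20.2% of all tested genes. The summed level of the A1 genes was 183 CPM in that brain and 145 to 159 CPM in the other young brains. For 0 of the 11 it was over 2 times the mean of the other young brains. With so few genes this cannot be told apart from the 1.07% of all tested genes. Of the 12 A2 genes, 10 were tested and 4 were higher (5 without young replicate 4), with a median of 0.49. They were the transglutaminase gene Tgm1 (1.46, SE 0.28, adjusted p = 0.0045), Cd109 (1.0, SE 0.2, adjusted p = 0.0065), a membrane-anchored protein, the prostaglandin synthase gene Ptgs2 (0.58, SE 0.14, adjusted p = 0.017) and Emp1 (0.77, SE 0.21, adjusted p = 0.032), a membrane protein. The A2 genes S100a10 (0.12, adjusted p = 0.44) and Tm4sf1 (0.08, adjusted p = 0.57), did not pass and changed sign on the TPM scale. Many genes of both classes are also expressed in microglia, vessels and neurons, and the difference between the classes was not tested.

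**Figure D4:**
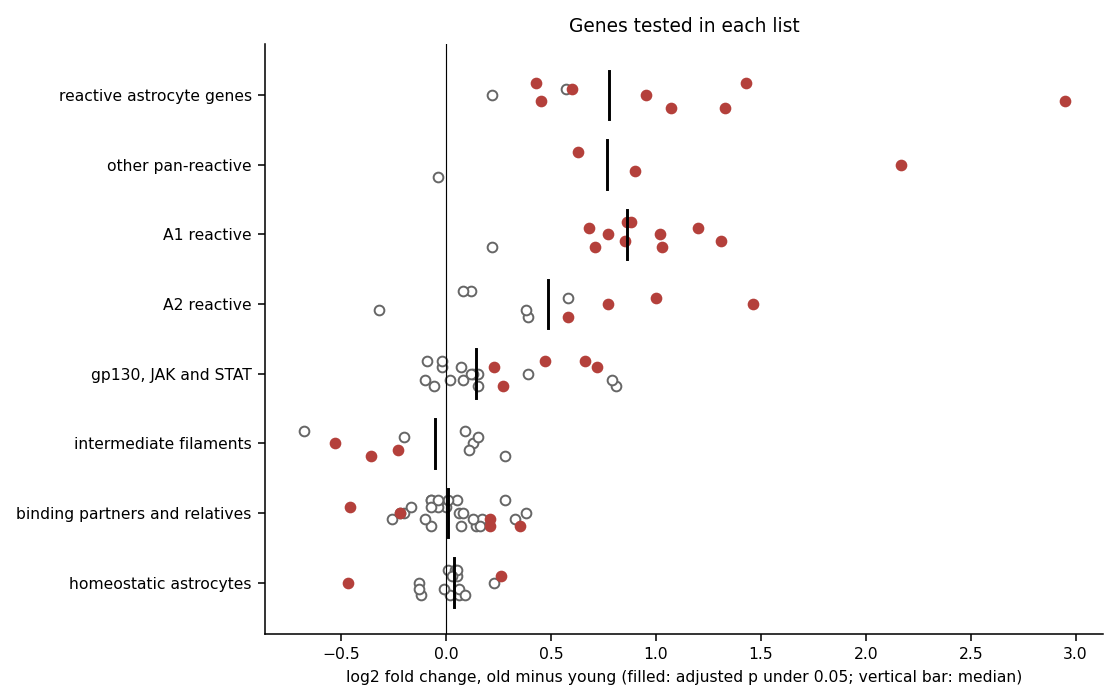
Log2 fold change, old minus young (horizontal), of every tested gene in 8 lists (vertical), filled where the adjusted p was under 0.05, with a bar at the median of each list. The reactive astrocyte genes have a median of 0.78, the A1 genes of 0.86, the A2 genes of 0.49, and the homeostatic astrocyte genes lie around 0.038.

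Genes that mark astrocytes at rest were counted in the same way. Of 16 homeostatic astrocyte markers, all tested, 1 was called higher and 1 lower, beside 6.20% and 4.83% of all tested genes. DESeq2 called 2 higher and 2 lower, and at an unadjusted p under 0.05 the counts were 3 and 3. The median log2 fold change was 0.038, and their summed level was 7364 to 7695 CPM in the young and 7599 to 8093 CPM in the old brains. Glul, the glutamine synthetase gene, rose from 1451 ± 37.4 to 1743 ± 67.8 CPM (log2 fold change 0.26, SE 0.037, adjusted p = 0.00069), and Kcnj10, the gene of the main astrocyte potassium channel, named after its values were seen, fell (-0.47, SE 0.072, adjusted p = 0.0012). Slc1a2, the main glutamate transporter gene, had 0.01 (adjusted p = 0.89) and changed sign on the TPM scale. In young replicate 4, the summed level was 7695 CPM. Of the 16 markers, 1 had its highest young level in that brain, beside 20.2% of all tested genes. There 0 of the 16 were over 2 times the mean of the other young brains. With so few genes this cannot be told apart from the 1.07% of all tested genes.

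Activated microglia markers were high in young replicate 4. Their summed level was 227 CPM in that brain. The other young brains lay between 129 and 138 CPM and the old between 219 and 268 CPM. All 11 markers had their highest young level in young replicate 4, beside 20.2% of all tested genes, and none was at 0 in every library. Of the 11, 8 were at over 2 times the mean of the other young brains, beside 1.07% of all tested genes. The markers with the largest excess there, named after their values were seen, were Itgax, an integrin gene, at 9.71 CPM against at most 0.261 CPM in the other young and 5.42 CPM in the old brains, and Clec7a, a lectin receptor gene, at 7.29 CPM against at most 0.309 and 5.78 CPM. With age, 7 of the 11 were higher in all 9 brains, 5 with the robust estimate, and 11 without young replicate 4. Homeostatic microglia markers summed to 343 CPM in young replicate 4, between 247 and 279 CPM in the rest of the young and between 322 and 383 CPM in the old. The part of microglia in the levels of Gfap, Serpina3n, Lcn2 and Osmr was not tested.

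The genes whose levels over the 9 brains were most like those of Gfap were Capg, C1qa, Ctss, Cd68 and Lag3. Likeness was the root mean square difference of centred log2 CPM among 14503 genes with a mean log2 CPM of at least 1, and it ran from 0.124 for Capg to 0.15 for Lag3. C1qa, a complement subunit gene, was at 62.8 CPM in young replicate 4, between 25.7 and 26.7 CPM in the rest of the young and between 61.5 and 74.4 CPM in the old. Nearest to Serpina3n were Lyz2, Lag3, Cd84, Myo1f and Mpeg1, at 0.274 to 0.339. Lyz2, the lysozyme gene of myeloid cells, was at 23.5 CPM in young replicate 4, between 5.43 and 6.98 CPM in the rest of the young and between 29.3 and 49.0 CPM in the old. C1qa, Ctss, Cd68, Lyz2 and Mpeg1 are known as genes of microglia and other myeloid cells. All these profiles share the same 9 libraries, 1 of which, young replicate 4, is far from the rest of its age in Gfap and Serpina3n.

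To compare levels between genes, which differ in length, the authors' TPM values were used. In old brain the order of the mean TPM was Gfap (309 ± 45.3), Serpina3n (71.1 ± 6.26), Vim (46.0 ± 5.25), Stat3 (19.5 ± 1.69), Lcn2 (6.84 ± 5.75), Timp1 (6.20 ± 1.57), S1pr3 (6.02 ± 0.714), Cd44 (3.04 ± 0.671), Osmr (2.64 ± 0.45) and Steap4 (0.741 ± 0.152; SD, n = 4). The ranges of neighbours in this order overlapped for Lcn2 with Timp1, Timp1 with S1pr3 and Cd44 with Osmr, and the other neighbours did not overlap. In young brain Gfap was also first (161 ± 64.3 TPM), Serpina3n (27.6 ± 19.3) and Vim (27.2 ± 6.30) did not differ beyond their spread, and Lcn2 was ninth (0.848 ± 0.991 TPM; SD, n = 5). The young range of Lcn2 overlapped that of Osmr, its neighbour above. When young replicate 4 was left out, Lcn2 came last, at 0.406 ± 0.0919 TPM, below Steap4 (0.65 ± 0.125), and Serpina3n (19.2 ± 5.43) came below Vim (28.6 ± 6.29; SD, n = 4). The ranges of Serpina3n (16.2 to 27.3 TPM) and Vim (24.1 to 37.8 TPM) still overlapped in those young brains.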

How the data were processed

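Whole brain RNA-seq of 5 young and 4 old mice was analysed as separate samples of each age. The young age is 3 months in the labels, while the paper also allows for 4. Per the paper, the authors trimmed reads (Trimmomatic), aligned them to Ensembl GRCm38 (STAR) and counted uniquely mapped reads on exons (featureCounts). The authors deposited these as raw gene counts. The authors' TPM values are scaled by gene length and library, and their normalized counts are a deposited signal, counts divided by 1 size factor per library, for 17994 genes. In each table, 1 column of per-sample values matched no sample and was not used.

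Genes were kept with filterByExpr (minimum count 10, minimum total 15), normalized with TMM and compared between ages with edgeR's quasi-likelihood test (edgeR 4.0.16, R 4.3.3) and Benjamini-Hochberg adjustment over all genes. CPM used TMM-scaled totals, and log2 CPM a prior count of 2. Fold changes on a TPM scale are of log2(TPM + 1) or log2(TPM + 0.1) and understate changes of low genes. Alternatives were DESeq2 1.42.0, other size factors and filters, limma 3.58.1 on TPM and on normalized counts, the replicate number as a block and each mouse left out. The robust spread estimate was added after the data were seen. The test was checked on simulated counts, where its share of false calls was above the nominal level.

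The 10 genes and all other gene lists were chosen with earlier results of these data known. Named from each pathway list were the called genes (at most 4 of lowest p per direction), the 2 of highest CPM and 9 preset genes, and from each marker list counts and the 2 of highest CPM; a few of these are left out here. Symbols and positions came from GENCODE M21, in which 48970 of 49315 gene IDs had a symbol, and promoters from RefSeq.

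Totals per library were 14229259 to 21150439 counts. Libraries of one age differed by more than sampling noise (chi-square per degree of freedom at least 4.04 in young and 4.74 in old), and each counted as 1 replicate. That each came from a separate mouse is stated by the paper as biological replicates.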

Additional observations from a re-analysis of the deposited data

Results flagged for a closer look

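Young replicate 4 was far above the other 4 young brains for Gfap, Serpina3n, Lcn2 and Osmr. The gap to the next young brain, as a share of the whole young range in log2 CPM, was 0.853 for Gfap, 0.828 for Serpina3n, 0.732 for Lcn2 and 0.794 for Osmr, each above Dixon's 95% critical value for 5 samples. The mean log2 CPM of the 10 genes, to which these 4 genes contribute, gave 0.715, with young replicate 4 at 3.81, the other young brains at 2.89 to 3.15 and the old brains at 3.98 and above. Of 22 combinations of a gene or the mean with an age, 5 passed, all in this brain. Chance passes about 1 in 20 independent groups, but these share their libraries and the brain was known to stand apart, so the count was not set against chance. The other 6 genes had no such brain in either age.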

How the results depend on the processing

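The direction of all 10 genes was the same under every alternative that was run. Of the 8 called genes, Vim and Osmr passed under all of them, Gfap, Serpina3n and Lcn2 under all but the robust spread estimate, Stat3 under all but both TPM scalings, and Cd44 and S1pr3 under all but both TPM scalings and the fit without old replicate 4. The limma passes of Gfap and Lcn2 on log2(TPM + 1) (adjusted p = 2.9e-07 and 2.4e-29) carry little weight. Their ages overlapped in TPM, with Lcn2 at up to 2.61 in the young and from 1.2 in the old. There limma drew each gene's spread toward a trend over all genes. Under the robust estimate 5 genes were called, 3 of them also past the fold threshold, and limma on log2(TPM + 1) and on log2(TPM + 0.1) called 5 each. On those scales the median log2 fold change of all genes was -0.14 and -0.16. The A1 genes called went from 10 to 6 on log2(TPM + 0.1), the A2 genes from 4 to 1 and 2, the gp130 genes from 5 to 1 and 1 and the partner genes from 5 to 1 and 1. The other pan-reactive genes called went from 3 to 2 on both TPM scales. For the filament genes the robust estimate gave 1 call, also without young replicate 4. The causes were not tested. Leaving out 1 mouse at a time gave 6 to 8 genes called, 5 to 6 with the fold threshold, a median of 0.68 to 0.87, 2 to 5 filament genes and 2 to 3 other pan-reactive genes. The lowest count of 6 came without old replicate 4. With the replicate number as a block, in which young replicate 2 has no partner, 8 genes were called and 5 past the fold threshold, and 1687 of all genes beside 2039 without it. No clear pairing of the mice by number was seen (correlations of same-numbered deviations -0.118 to 0.17), but so few correlations cannot exclude one. Steap4 was not tested under the filter of 1 CPM in 4 libraries. Depth limits Steap4 (9 to 22 reads a library) and Lcn2 (5 to 9 reads in 4 young libraries).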

Other observations

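The marker lists of other brain cells, counted to see what else differed between these brains, gave few calls in common. Of 10 endothelial markers 4 were higher and 0 lower in old brain (median log2 fold change 0.15), among them the vascular growth factor receptor gene Flt1 (0.25, SE 0.067, adjusted p = 0.028), whereas the transporter gene Slco1a4 had 0.11 (adjusted p = 0.39) and changed sign on the TPM scale. Of 8 pericyte and smooth muscle markers 2 were higher, and the 2 of highest CPM, Rgs5 (adjusted p = 0.45) and Vtn (adjusted p = 0.35), did not pass. Of 9 neuronal markers 3 were lower, while Snap25 (-0.04, adjusted p = 0.61) and Syt1 (0.09, adjusted p = 0.36) did not pass. Oligodendrocyte markers gave 3 higher and 2 lower of 8, with Mbp, the myelin basic protein gene, higher (0.26, SE 0.063, adjusted p = 0.018). Without young replicate 4 the calls were 4 higher and 1 lower for endothelium and 2 higher and 1 lower for pericytes and smooth muscle. Of the neuronal markers 2 were then lower, and oligodendrocyte markers gave 2 higher and 2 lower.

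Of 6 oligodendrocyte precursor markers 2 were lower, among them Olig1 (-0.17, SE 0.039, adjusted p = 0.015), while Pdgfra had 0.05 (adjusted p = 0.61). Of 7 fibroblast and meninges markers 1 was lower, with Igf2 at 0.16 (adjusted p = 0.14) and Col1a2 at 0.12 (adjusted p = 0.82). Of 6 choroid plexus markers 0 passed by edgeR, by DESeq2 or at an unadjusted p under 0.05 (Ttr 0.05, adjusted p = 0.86, and Kl -0.19, adjusted p = 0.28), and of 6 ependymal markers 1 was lower (Foxj1 -0.21, adjusted p = 0.28, and Rarres2 -0.12, adjusted p = 0.63). All 5 red blood cell markers were higher, 3 with the robust estimate, with Hbb-bs at 1.31 (SE 0.24, adjusted p = 0.0037) and Hba-a1 at 1.35 (SE 0.24, adjusted p = 0.0035). Of 11 homeostatic microglia markers 3 were higher, and Csf1r, a growth factor receptor gene, had 0.18 (adjusted p = 0.32). Without young replicate 4, 4 were higher, and Csf1r had 0.33 (SE 0.046, adjusted p = 0.00057). Of the activated microglia markers, those of highest CPM were Axl (0.29, SE 0.067, adjusted p = 0.012) and Ctsz (0.52, SE 0.13, adjusted p = 0.018).

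The 6 olfactory bulb markers summed to 24.9 to 188 CPM in the old and 25.2 to 92.3 CPM in the young brains, and 0 passed by edgeR or DESeq2, with 3 higher at an unadjusted p under 0.05 (Cdhr1 1.52, SE 0.69, adjusted p = 0.18, and Th 0.49, SE 0.30, adjusted p = 0.33). Young replicate 4 was at 27.3 CPM.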
